A study of Mus musculus with 30 samples.

Results

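The mRNA of 41 genes that carry carbon through the TCA cycle, fatty acid oxidation and itaconate synthesis was followed in tumour-associated macrophages of the mouse. The genes were taken by name from the 46603 genes of the deposited count table: 20 of the TCA cycle and the pyruvate enzymes that feed it, 20 of fatty acid oxidation, and Acod1, which the table lists under its older name Irg1. The rule uses no measured value, though the members were chosen with earlier results of these data known. All 41 had enough counts to be tested in every comparison.

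The TCA cycle turns acetyl-CoA into carbon dioxide inside mitochondria and hands the electrons to the respiratory chain, while its intermediates also leave for lipid synthesis and for signalling. Fatty acid oxidation brings acyl chains into mitochondria through the carnitine shuttle and shortens them by repeated rounds of dehydrogenation, hydration, a further oxidation and thiolysis, which yield acetyl-CoA for the cycle. Activated macrophages divert aconitate out of the cycle to itaconate through Acod1, an enzyme induced by inflammatory signals, and itaconate inhibits succinate dehydrogenase.

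Macrophages were taken from subcutaneous tumours grown from 3LL-R, a line derived from Lewis lung carcinoma, in C57BL/6 mice of WT genotype, and were sorted by surface MHC class II into MHC-IIlo and MHC-IIhi cells. The 6 groups, each of 5 libraries, were MHC-IIlo and MHC-IIhi cells cultured for 24 h with 20 mM sodium L-lactate, MHC-IIlo and MHC-IIhi cells cultured for 24 h with no lactate, and fresh MHC-IIlo and MHC-IIhi cells. Cultured libraries came from 250000 cells, and fresh ones from 30000 cells sorted straight into lysis buffer. The labels call the 5 libraries of a group biological replicates without saying whether each had its own mouse, so the p-values below measure the spread between these libraries.

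Total counts per library were 16913250 to 31481548. Fresh and cultured libraries parted on the first principal component (56.7% of the variance), and no 2 libraries were identical. All 10 macrophage markers examined were detected in every group, with summed levels of 2930 to 9640 CPM (counts scaled to a common library total with TMM factors) in cultured libraries and 8080 to 16800 CPM in fresh ones. The lowest of these sums belonged to library 5 of lactate MHC-IIlo, which stood apart from the other lactate MHC-IIlo libraries, with a TMM factor of 1.28 against 0.919 to 1.01. Summed markers of T and NK cells reached 15.4 CPM at most, those of B cells 10.2 CPM and those of fibroblasts 109 CPM, while those of dendritic cells reached 289 CPM, epithelial and tumour markers 580 CPM, neutrophil markers 2350 CPM and monocyte markers 3470 CPM. In lactate MHC-IIhi, where the neutrophil sum was highest, Mmp8 alone had a mean of 1782 CPM and S100a9 one of 0.0254 CPM. In fresh MHC-IIhi, where the epithelial and tumour sum was highest, Cdh1 alone had a mean of 438 CPM and Epcam one of 0.316 CPM. Levels below are CPM with mean ± SD over n = 5 libraries, changes are log2 fold changes ± SE from the edgeR quasi-likelihood F test, and a gene was called at a Benjamini-Hochberg adjusted p under 0.05 over all genes tested.

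Per kilobase of the deposited gene length, which can exceed that of the mRNA, Cs was the most abundant of the 41 in fresh cells. Cs, the citrate synthase that opens the cycle, was at 88.9 ± 5.59 RPKM in MHC-IIlo and 112 ± 5.86 RPKM in MHC-IIhi. Pcx, the pyruvate carboxylase that refills oxaloacetate, was the least abundant in all 6 groups, at 0.759 ± 0.22 RPKM in fresh MHC-IIlo and 0.441 ± 0.16 RPKM in fresh MHC-IIhi. Of the fatty acid oxidation genes, Cpt1a and Acadl stood highest in both fresh subsets, at 46.7 and 45.7 RPKM in MHC-IIlo and 44.5 and 43.7 RPKM in MHC-IIhi, and Hadhb stood lowest. The electron transfer flavoprotein subunits Etfa and Etfb, which pair one to one in the protein, were at 35.3 ± 1.87 and 7.92 ± 0.74 RPKM in fresh MHC-IIlo. A protein-coding gene on the same strand, RP23-74K24.2, overlaps Etfb and had 0 counts. Whether that overlap cost Etfb reads was not tested. In all 4 cultured groups the order was headed by Acod1 instead, at 164 ± 20.4 RPKM in lactate MHC-IIlo, 450.2 ± 111 RPKM in lactate MHC-IIhi, 167 ± 17.5 RPKM in no-lactate MHC-IIlo and 372 ± 75.0 RPKM in no-lactate MHC-IIhi, with Cs next at 80.4 to 87.4 RPKM. In fresh cells Acod1 was at 6.19 RPKM in MHC-IIlo and 3.24 RPKM in MHC-IIhi.

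The upstream sequences of 4 members are shown because the results turn on them: Acod1, which rose most in culture, and Fh1, Acadm and Etfb, which fell strongly. Each line gives the 250 bases before the start, 5′ to 3′ on the strand of the gene, from RefSeq (GRCm38.p6), with the TATA box hexamer TATAAA and the pentamer CCAAT in capitals (ATTGG where it lies on the opposite strand). Acod1 (ENSMUSG00000022126) is a gene of 5 exons on chromosome 14 of GRCm38, from 103046977 to 103056573, Fh1 lies on chromosome 1 from 175600374 to 175625635, Acadm on chromosome 3 from 153922357 to 153944632 and Etfb on chromosome 7 from 43444108 to 43457800. The windows are set by the RefSeq starts and the spans by the deposited table, whose starts differ for Acod1, Acadm and Etfb: the Acod1 window runs past the start given here, and its TATAAA lies after that start. The windows are chr14:103046762-103047011 on the plus strand for Acod1, chr1:175625636-175625885 on the minus strand for Fh1, chr3:153944644-153944893 on the minus strand for Acadm and chr7:43443822-43444071 on the plus strand for Etfb.
Acod1: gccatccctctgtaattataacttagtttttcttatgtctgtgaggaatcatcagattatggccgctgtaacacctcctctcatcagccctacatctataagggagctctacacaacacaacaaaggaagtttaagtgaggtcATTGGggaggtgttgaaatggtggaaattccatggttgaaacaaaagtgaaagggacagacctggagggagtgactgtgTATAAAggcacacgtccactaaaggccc
Fh1: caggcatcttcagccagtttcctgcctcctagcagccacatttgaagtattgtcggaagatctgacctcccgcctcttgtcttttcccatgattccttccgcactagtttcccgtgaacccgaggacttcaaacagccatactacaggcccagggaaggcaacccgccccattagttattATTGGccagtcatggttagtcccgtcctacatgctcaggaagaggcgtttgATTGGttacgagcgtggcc
Acadm: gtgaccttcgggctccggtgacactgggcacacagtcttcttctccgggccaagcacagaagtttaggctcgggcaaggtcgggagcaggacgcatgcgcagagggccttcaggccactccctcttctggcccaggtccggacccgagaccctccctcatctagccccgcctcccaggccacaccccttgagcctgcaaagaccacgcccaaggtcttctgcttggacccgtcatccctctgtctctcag
Etfb: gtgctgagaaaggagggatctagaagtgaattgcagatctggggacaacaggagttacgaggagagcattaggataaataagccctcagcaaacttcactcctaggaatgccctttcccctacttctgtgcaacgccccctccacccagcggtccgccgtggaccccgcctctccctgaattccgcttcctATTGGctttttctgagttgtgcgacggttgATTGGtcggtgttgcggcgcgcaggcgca

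A sequence was found for 37 of the 41 members, and each motif was searched on both strands. Acod1 alone of the 37 held TATAAA, 28 to 23 bases before its RefSeq start, where 12.4% of 32851 promoters in the RefSeq table held it somewhere in the same window. CCAAT stood in the windows of 11 of 19 TCA cycle genes, 7 of 17 fatty acid oxidation genes and Acod1, and in 33.8% of all promoters. The median GC content was 61.6% for the TCA cycle windows and 58.8% for those of fatty acid oxidation, against 44.4% for Acod1 and a median of 52.4% over all promoters. TCAAGGTCA, the element bound by estrogen-related receptors, stood in none of the 37 windows and in 0.387% of all promoters. These matches describe letters in a window and were not tied to any change in level.

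Fresh MHC-IIlo cells had less mRNA of several TCA cycle enzymes than fresh MHC-IIhi cells. Of the 20 TCA cycle genes, 8 were lower and 2 were higher in MHC-IIlo, where over all 12787 genes tested 15.2% were called lower, 14% higher and 29.2% in either direction. The median log2 fold change of the 20 was -0.12, and that of all genes tested lay between -0.02 and 0.02 in this and in each of the other 8 comparisons. Lower were Cs, Aco1, Idh3b, Idh3g, Suclg1, Fh1, Mdh2 and Pdhb, and higher were Idh2 and Mdh1.

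Idh3g, the gamma subunit of the NAD-dependent isocitrate dehydrogenase (chromosome X, 73778963 to 73786897, minus strand), showed the strongest of these differences. Its levels were 57.9, 66.2, 69.8, 63.3 and 63.8 CPM in fresh MHC-IIlo, against 89.2, 91.6, 95.6, 100.2 and 98.9 CPM in fresh MHC-IIhi. Every MHC-IIlo library lay below every MHC-IIhi library, and the log2 fold change was -0.56 ± 0.07 (adjusted p = 5.01e-05). The other subunits of the same enzyme did not move as far: Idh3b was 1.17-fold lower (-0.23 ± 0.07, adjusted p = 0.0375) with overlapping groups, and Idh3a had a log2 fold change of -0.24 that was not called.

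Fh1, the fumarase, was at 46.0, 48.5, 51.9, 48.5 and 51.8 CPM in fresh MHC-IIlo and at 62.3, 63.0, 64.3, 62.7 and 64.0 CPM in fresh MHC-IIhi. The groups did not overlap, and the MHC-IIhi libraries were almost level with each other (-0.36 ± 0.06, adjusted p = 0.000599). Kmo, a dendritic cell marker at 2.23 CPM in fresh MHC-IIlo and 20.5 CPM in fresh MHC-IIhi, lies on the opposite strand over part of Fh1, with 10.5% as many counts as Fh1 over all libraries, and the strand setting of the counting is not given in the sources used here.

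Cs was at 246, 260.2, 274, 244 and 233 CPM in fresh MHC-IIlo and at 294, 339, 324, 315 and 311 CPM in fresh MHC-IIhi, again with no overlap (-0.33 ± 0.07, adjusted p = 0.00386). Mdh2, the mitochondrial malate dehydrogenase, was lower by about the same step (219 ± 11.6 CPM in MHC-IIlo, 270.2 ± 15.7 CPM in MHC-IIhi, -0.30 ± 0.07, adjusted p = 0.00524, but 0.0964 to 0.104 with limma on FPKM), and Suclg1, the alpha subunit of succinyl-CoA ligase, had a log2 fold change of -0.25. Smaller differences were those of Pdhb, the beta subunit of pyruvate dehydrogenase, and Aco1, the cytosolic aconitase, at -0.23 and -0.18.

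The 2 genes that went the other way were Idh2 and Mdh1. Idh2, the mitochondrial NADP-dependent isocitrate dehydrogenase (chromosome 7, 80094846 to 80115392, minus strand), was at 109, 106, 114, 99.7 and 113 CPM in fresh MHC-IIlo and at 74.3, 69.0, 100.2, 71.3 and 72.6 CPM in fresh MHC-IIhi. The log2 fold change was 0.48 ± 0.11 (adjusted p = 0.00429), and the groups overlapped only through library 3 of MHC-IIhi. Mdh1, the cytosolic malate dehydrogenase, was at 107 ± 5.52 CPM in fresh MHC-IIlo and 87.8 ± 8.14 CPM in fresh MHC-IIhi (0.29 ± 0.07, adjusted p = 0.009), with no overlap.

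Of the 20 fatty acid oxidation genes, 5 were lower in fresh MHC-IIlo and none was higher, beside the 15.2% lower and 14% higher over all genes, with a median log2 fold change of -0.04. Acadm, the medium-chain acyl-CoA dehydrogenase, was at 67.0, 63.6, 63.4, 64.5 and 58.8 CPM in fresh MHC-IIlo and at 82.8, 85.8, 85.0, 94.2 and 81.9 CPM in fresh MHC-IIhi. The groups were well apart (-0.43 ± 0.06, adjusted p = 0.000154). Acaa2, a mitochondrial thiolase, was at 51.2, 45.8, 45.8, 47.3 and 46.4 CPM in MHC-IIlo and at 59.3, 62.5, 58.4, 61.4 and 58.8 CPM in MHC-IIhi, also with no overlap (-0.34 ± 0.06, adjusted p = 0.00051).

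Acaa1a, the peroxisomal thiolase, was at 95.3, 78.9, 81.3, 89.1 and 92.3 CPM in fresh MHC-IIlo and at 107, 107, 105, 131 and 115 CPM in fresh MHC-IIhi (-0.37 ± 0.07, adjusted p = 0.00188). The libraries of the subsets did not overlap. Reads of Acaa1a may be shared with its near copy Acaa1b and with Myd88 on the opposite strand, so its values are less certain, and its call was lost in a fit of all 30 libraries (adjusted p = 0.13). Slc25a20, the carrier that passes acylcarnitines across the inner membrane, was 1.31-fold lower (-0.39 ± 0.09), and Acads, the short-chain dehydrogenase, 1.15-fold lower (-0.20 ± 0.07). The rate-limiting transferase Cpt1a was at 201 ± 17.9 CPM in fresh MHC-IIlo and 192 ± 15.9 CPM in fresh MHC-IIhi, a log2 fold change of 0.07 that was not called.

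Acod1 was low in both fresh subsets and higher in MHC-IIlo. It was at 13.4, 12.7, 15.2, 15.05 and 24.8 CPM in fresh MHC-IIlo, against 9.82, 5.09, 8.22, 10.1 and 9.26 CPM in fresh MHC-IIhi. The groups did not overlap, and the log2 fold change was 0.94 ± 0.21 (adjusted p = 0.00493), or 0.74 (adjusted p = 0.0103) without the highest library, number 5 of MHC-IIlo.

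Other genes of the pathways moved both ways between the fresh subsets. Of 28 other TCA cycle and pyruvate genes tested, 3 were higher and 8 lower in MHC-IIlo, among them the aspartate-glutamate carriers Slc25a13 (-0.95) and Slc25a12 (-0.62), both lower, and the dicarboxylate carrier Slc25a10 (0.83) and the pyruvate carrier subunit Mpc1 (0.57), both higher. Of 35 other fatty acid oxidation genes, 6 were higher and 8 lower, with Ehhadh (0.69) and Abcd3 (0.47) of the peroxisome highest and Cpt1c (-2.08) and Pparg (-0.93) lowest. The list of itaconate partners, which holds 3 of the members, had none higher and 2 lower of 11 tested, Suclg1 and the succinate dehydrogenase subunit Sdhb (-0.23).

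Markers of other cells also differed between the fresh subsets. Of the 10 macrophage markers 7 were higher in MHC-IIlo, with sums of 12500 to 16800 CPM against 8080 to 12000 CPM in MHC-IIhi. Dendritic cell markers had 7 of 8 tested lower and 1 higher in MHC-IIlo, with sums of 153 to 254 CPM in MHC-IIlo against 104 to 150 CPM in MHC-IIhi. The higher one was Clec10a, with a mean of 186 CPM in fresh MHC-IIlo and 73.0 CPM in fresh MHC-IIhi, and Xcr1 was at 0 in MHC-IIlo. Neutrophil markers had 6 of 7 tested higher, at 1020 to 2020 CPM in MHC-IIlo against 276 to 717 CPM in MHC-IIhi, with Camp at 0 in both, and epithelial and tumour markers had 1 of 2 tested lower, at 138 to 281 CPM in MHC-IIlo against 506 to 580 CPM in MHC-IIhi, with Epcam and Krt18 at 0 in MHC-IIlo. Monocyte markers had 3 of 7 lower, Ccr2 (-1.42), Plac8 (-1.10) and Vcan (-0.94), and F13a1 higher (1.84), with sums of 2450 to 3030 CPM in MHC-IIlo against 2330 to 3470 CPM in MHC-IIhi. Fibroblast markers had 3 of 6 tested higher, the collagens Col1a1, Col1a2 and Col3a1, with sums of 31.5 to 109 CPM in MHC-IIlo against 19.3 to 67.0 CPM in MHC-IIhi, and of T and NK and of B cell markers 1 each was lower (Gzmb and Cd79b). Their part in the differences of the member genes was not tested, and in bulk RNA fewer cells of a type and less RNA per cell cannot be told apart.

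Some of these calls were narrow. Idh3b and Acads each lost theirs with 8 of the 10 fresh libraries left out singly (adjusted p up to 0.107 and 0.113), Pdhb without MHC-IIhi 5, MHC-IIlo 1 or MHC-IIlo 5 (up to 0.0839) and Aco1 without MHC-IIhi 5 or MHC-IIlo 5 (up to 0.0518). A block on the replicate number, which was taken to pair the fresh libraries, gave 21 of 41 members in place of 16. Over all 12787 genes tested the block called 5004 in place of 3737. The members added were Idh3a (-0.24, adjusted p = 0.0044), Suclg2 (0.42, adjusted p = 0.00149), Pcx (0.80, adjusted p = 0.0158), Eci2 (-0.26, adjusted p = 0.017) and Decr1 (0.30, adjusted p = 0.0343).

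**Figure D1:**
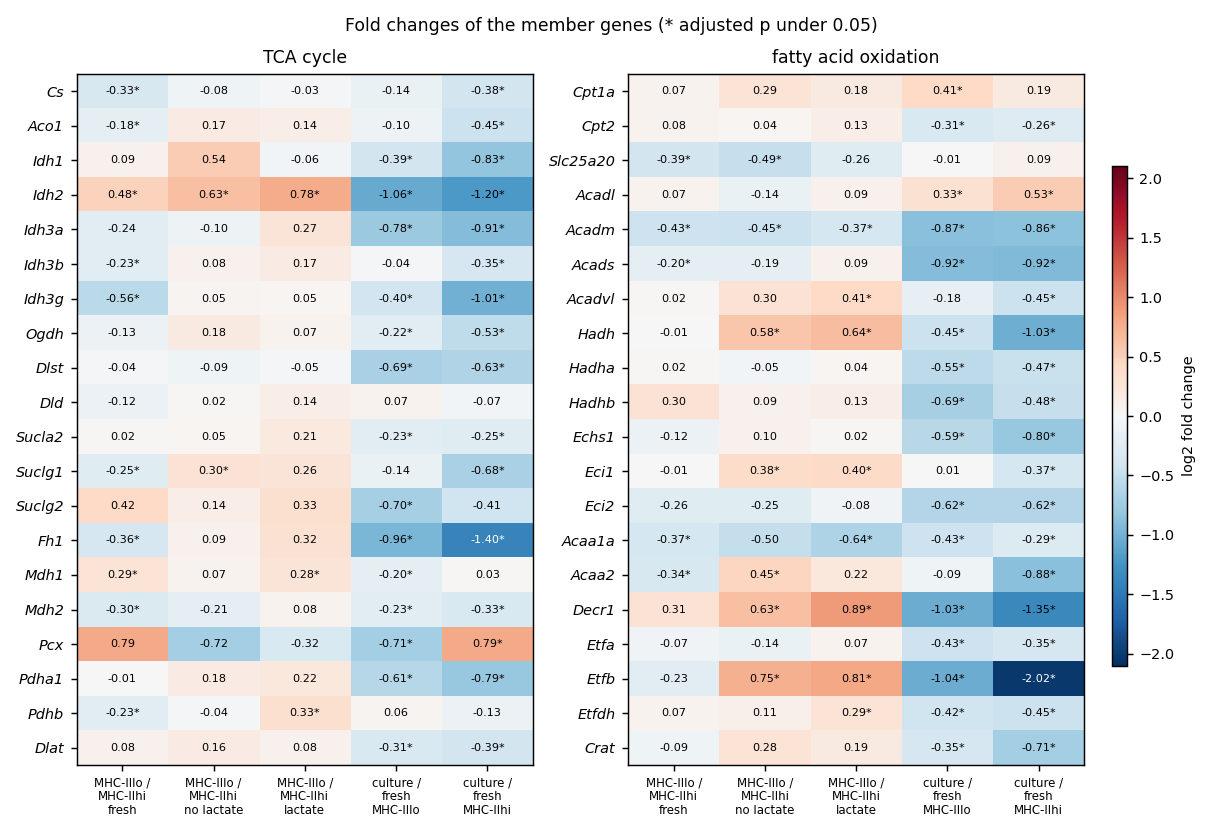
Log2 fold changes of the 20 TCA cycle and 20 fatty acid oxidation genes (down the page) in 5 comparisons (across), coloured by size and sign, with an asterisk for an adjusted p under 0.05 in the edgeR test. The culture columns are mostly blue, down to -2.02 for Etfb in MHC-IIhi, while the subset columns hold both colours.

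Culture for 24 h lowered most TCA cycle genes in both subsets. In MHC-IIlo, no-lactate culture against fresh, 14 of the 20 fell and none rose, where 29.9% of 13682 genes tested fell, 27.6% rose and 57.5% were called in all, and the median of the 20 was -0.27. In MHC-IIhi, 15 fell and 1 rose, where 30.4% of genes fell, 31.6% rose and 62.0% were called, and the median was -0.43. The falls were shared by 11 genes, and summed over the 20 the level was 1617 to 1687 CPM in no-lactate MHC-IIlo, against 2048 to 2119 CPM in fresh MHC-IIlo, and 1571 to 1632 CPM in no-lactate MHC-IIhi, against 2186 to 2334 CPM in fresh MHC-IIhi.

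Fh1 had the smallest adjusted p of the TCA cycle genes in both subsets. It was at 27.4, 23.1, 25.8, 26.4 and 23.4 CPM in no-lactate MHC-IIlo, against the 46.0 to 51.9 CPM of fresh MHC-IIlo (-0.96 ± 0.08, adjusted p = 9.09e-10). It was at 23.6, 22.2, 26.9, 20.3 and 25.8 CPM in no-lactate MHC-IIhi, against the 62.3 to 64.3 CPM of fresh MHC-IIhi (-1.40 ± 0.08, adjusted p = 2.13e-12). All cultured libraries lay far below the fresh ones, and after culture the subsets overlapped. Kmo, which overlaps Fh1 on the opposite strand, had means of 0.169 CPM in no-lactate MHC-IIlo and 2.23 CPM in fresh MHC-IIlo. In MHC-IIhi its means were 0.947 CPM after culture and 20.5 CPM in fresh cells. The part of shared reads in the fall of Fh1 was not tested.

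Pdha1, the catalytic alpha subunit of pyruvate dehydrogenase, was at 87.6, 91.2, 85.6, 90.3 and 85.0 CPM in no-lactate MHC-IIlo and at 130, 136, 133, 137 and 136 CPM in fresh MHC-IIlo (-0.61 ± 0.06, adjusted p = 3.87e-08). In MHC-IIhi it was at 76.5, 79.7, 85.0, 76.4 and 73.1 CPM after culture and at 125, 134, 134, 149.8 and 136 CPM in fresh cells (-0.79 ± 0.06, adjusted p = 5.51e-10). Neither pair of groups overlapped. Pdhb, which forms the other chain of the same enzyme, was called in neither subset (0.06 in MHC-IIlo and -0.13 in MHC-IIhi), and Dlat, its acetyltransferase core, fell by 0.31 in MHC-IIlo and by 0.39 in MHC-IIhi on the log2 scale.

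Idh2 was at 57.8, 45.6, 48.4, 55.1 and 50.8 CPM in no-lactate MHC-IIlo, against the 99.7 to 114 CPM of fresh MHC-IIlo, and fell 2.09-fold (-1.06 ± 0.11, adjusted p = 6.28e-08). In no-lactate MHC-IIhi it was at 29.7, 28.8, 43.7, 33.4 and 31.7 CPM, against the 69.0 to 100.2 CPM of fresh MHC-IIhi, and fell 2.30-fold (-1.20 ± 0.11). No cultured library reached a fresh one. Idh3g was at 53.0, 49.3, 45.7, 49.7 and 44.7 CPM in no-lactate MHC-IIlo (-0.40 ± 0.08, adjusted p = 0.00015) and at 54.1, 40.2, 48.8, 46.9 and 44.4 CPM in no-lactate MHC-IIhi (-1.01 ± 0.08, adjusted p = 3.06e-10), and the cultured subsets overlapped.

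Of the 7 genes on the way between citrate and oxoglutarate, 4 fell in MHC-IIlo and all 7 in MHC-IIhi. Dlst, the succinyltransferase of the oxoglutarate dehydrogenase complex, fell by 0.69 in MHC-IIlo and 0.63 in MHC-IIhi, and Ogdh, the first enzyme of that complex, by 0.22 and 0.53. Idh3a fell by 0.78 in MHC-IIlo and 0.91 in MHC-IIhi, Idh1, the cytosolic NADP-dependent isocitrate dehydrogenase, by 0.39 and 0.83, and Sucla2, a beta subunit of succinyl-CoA ligase, by 0.23 and 0.25. Suclg2, the other beta subunit, fell by 0.70 in MHC-IIlo and had a log2 fold change of -0.41 in MHC-IIhi that was not called. In MHC-IIhi Suclg1 fell by 0.68, Aco1 by 0.45, Cs by 0.38 and Idh3b by 0.35, while Mdh2 fell by 0.23 in MHC-IIlo and 0.33 in MHC-IIhi. Dld, the lipoamide dehydrogenase that both dehydrogenase complexes share, was called in neither subset (0.07 in MHC-IIlo and -0.07 in MHC-IIhi). Mdh1 was 1.15-fold lower in no-lactate MHC-IIlo (-0.20 ± 0.07, adjusted p = 0.018, or 0.0517 without fresh MHC-IIlo 5) and at 0.03 in MHC-IIhi, where it was not called. Pcx, with the fewest counts of all, fell in MHC-IIlo (-0.71, adjusted p = 0.0455) and rose in MHC-IIhi (0.79, adjusted p = 0.0257), the first call lost with 12 of 20 libraries left out singly and the second without fresh MHC-IIhi 1, fresh MHC-IIhi 2 or no-lactate MHC-IIhi 7. Lrfn4, on the opposite strand over part of Pcx, had 3924 counts in all against 1986 for Pcx.

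Culture also lowered most fatty acid oxidation genes. In MHC-IIlo 14 fell and 2 rose, with a median of -0.43, and in MHC-IIhi 17 fell and 1 rose, with a median of -0.48, beside the shares over all genes given above. The 14 genes that fell in MHC-IIlo all fell in MHC-IIhi. Summed over the 20, the level was 991 to 1130 CPM in no-lactate MHC-IIlo and 1147 to 1280 CPM in fresh MHC-IIlo, and 939.8 to 1099 CPM in no-lactate MHC-IIhi and 1241 to 1387 CPM in fresh MHC-IIhi.

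The acyl-CoA dehydrogenases did not move together. Acadm was at 33.2, 32.5, 36.3, 33.5 and 37.0 CPM in no-lactate MHC-IIlo, against the 58.8 to 67.0 CPM of fresh MHC-IIlo (-0.87 ± 0.06, adjusted p = 1.5e-10), and at 44.7, 46.8, 48.8, 48.2 and 47.7 CPM in no-lactate MHC-IIhi, against the 81.9 to 94.2 CPM of fresh MHC-IIhi (-0.86 ± 0.06, adjusted p = 1.57e-10). Acads was at 25.4, 22.4, 24.1, 22.2 and 21.5 CPM in no-lactate MHC-IIlo and at 47.2, 43.2, 41.6, 41.7 and 45.2 CPM in fresh MHC-IIlo (-0.92 ± 0.08, adjusted p = 2.33e-09), and in MHC-IIhi at 29.9, 23.7, 26.4, 24.6 and 27.4 CPM after culture and at 45.8, 49.6, 49.8, 56.3 and 50.0 CPM in fresh cells (-0.92 ± 0.08, adjusted p = 1.58e-09). Both fell by close to the same step in either subset, with no overlap. Acadl, the long-chain dehydrogenase, rose instead, to 114 ± 6.74 CPM in no-lactate MHC-IIlo, against 91.7 ± 4.18 CPM in fresh MHC-IIlo (0.33 ± 0.07, adjusted p = 0.00078), and to 126 ± 13.6 CPM in no-lactate MHC-IIhi, against 87.6 ± 5.00 CPM in fresh MHC-IIhi (0.53 ± 0.07, adjusted p = 2.26e-06). Acadvl, the very-long-chain enzyme, fell in MHC-IIhi (-0.45 ± 0.10) and was at -0.18 in MHC-IIlo, where it was not called.

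The electron transfer genes fell in both subsets, all 3 of them. Etfb was at 3.11, 2.58, 2.50, 2.47 and 2.30 CPM in no-lactate MHC-IIhi and at 13.1, 7.75, 9.97, 11.1 and 11.1 CPM in fresh MHC-IIhi. That 4.06-fold fall (-2.02 ± 0.15, adjusted p = 2.12e-10) was the largest fall of any member, and the groups lay far apart. The part of the gene that overlaps Etfb on the same strand, RP23-74K24.2, in these levels was not tested. In MHC-IIlo Etfb was at 4.35 ± 0.66 CPM after culture and 9.02 ± 0.85 CPM in fresh cells (-1.04 ± 0.15, adjusted p = 2.76e-06). Its partner Etfa fell less, by 0.43 in MHC-IIlo and 0.35 in MHC-IIhi, and Etfdh, which passes the electrons on to ubiquinone, by 0.42 and 0.45.

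Decr1, the dienoyl-CoA reductase needed for unsaturated chains, was at 8.23, 7.89, 7.46, 7.23 and 8.69 CPM in no-lactate MHC-IIlo and at 15.05, 12.04, 15.6, 18.2 and 20.4 CPM in fresh MHC-IIlo. All cultured libraries lay below the fresh ones (-1.03 ± 0.13, adjusted p = 9.96e-07), as in MHC-IIhi (5.11 ± 0.67 CPM after culture and 13.1 ± 1.37 CPM in fresh cells, -1.35 ± 0.14). Of the 5 hydratase, 3-hydroxyacyl-CoA dehydrogenase and thiolase genes of the main spiral, 4 fell in MHC-IIlo and all 5 in MHC-IIhi. Those that fell in both were Echs1 (-0.59 in MHC-IIlo and -0.80 in MHC-IIhi), Hadh (-0.45 and -1.03) and the trifunctional protein chains Hadha (-0.55 and -0.47) and Hadhb (-0.69 and -0.48). The isomerase Eci2 fell by 0.62 in both, Eci1 by 0.37 in MHC-IIhi, and Acaa1a by 0.43 in MHC-IIlo and 0.29 in MHC-IIhi, the last call lost with 8 of 20 libraries left out singly (adjusted p up to 0.137) and with DESeq2 (0.0596).

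The carnitine shuttle was split. Cpt1a, which commits acyl chains to mitochondria, was at 309.9, 279, 239, 242 and 262 CPM in no-lactate MHC-IIlo and at 214, 189, 176, 217 and 210 CPM in fresh MHC-IIlo, where it rose by 0.41 ± 0.10 (adjusted p = 0.000837) with no overlap. In MHC-IIhi it was at 218 ± 27.4 CPM after culture and 192 ± 15.9 CPM in fresh cells (0.19 ± 0.10, adjusted p = 0.0828), and the difference between the subsets in this effect was not called. Cpt2, which acts after it, fell by 0.31 in MHC-IIlo and 0.26 in MHC-IIhi, the first call lost without fresh MHC-IIlo 5 (adjusted p = 0.0517) and the second with 5 of 20 libraries left out singly (up to 0.0938). Slc25a20, which links them, was at -0.01 and 0.09 and was not called. Crat, the acetyltransferase that makes acetylcarnitine, fell by 0.35 in MHC-IIlo and 0.71 in MHC-IIhi.

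Acod1 rose more in culture than any other member. It was at 436, 501, 396, 462 and 392 CPM in no-lactate MHC-IIlo, against 12.7 to 24.8 CPM in fresh MHC-IIlo, a 27.1-fold rise (4.76 ± 0.21, adjusted p = 4.52e-14). It was at 1140, 924, 906, 1198 and 709 CPM in no-lactate MHC-IIhi, against 5.09 to 10.1 CPM in fresh MHC-IIhi, a 115-fold rise (6.84 ± 0.23, adjusted p = 8.05e-16). No cultured library came near a fresh one in either subset, and the order of the subsets in culture was the reverse of that in fresh cells. The rise in MHC-IIlo was the smaller one, with a difference of -2.09 ± 0.26 on the log2 scale (MHC-IIlo minus MHC-IIhi, adjusted p = 1.44e-05).

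**Figure D2:**
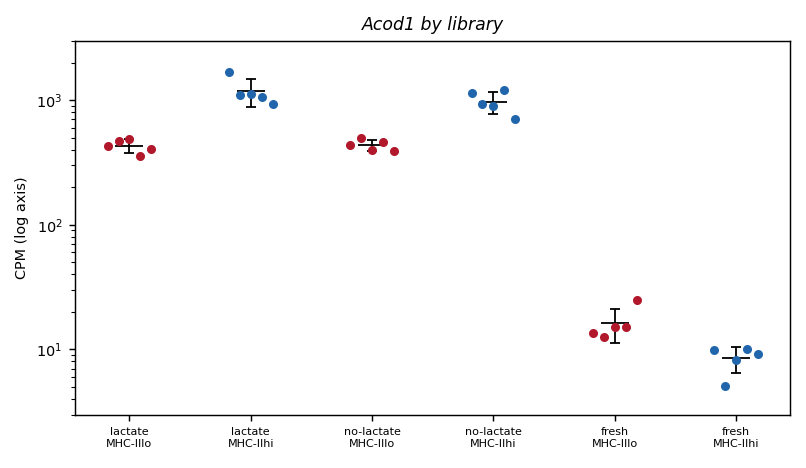
Acod1 in each library (points), in CPM on a log axis, with the mean and SD of 5 libraries per group (black). The 20 cultured libraries lie between 356 and 1687 CPM and the 10 fresh ones between 5.09 and 24.8 CPM, with MHC-IIlo below MHC-IIhi in culture and above it in fresh cells.

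The effect of culture differed between the subsets for 11 of the 41 members, where 14.3% of 13682 genes tested were called for this difference, 6.03% with the higher change in MHC-IIlo and 8.27% with the lower. For 6 TCA cycle genes the change in MHC-IIlo lay above that in MHC-IIhi: Idh3g (0.61 ± 0.11, adjusted p = 0.000637), Suclg1 (0.55 ± 0.11, adjusted p = 0.00132), Fh1 (0.44 ± 0.11, adjusted p = 0.00904), Aco1 (0.35 ± 0.07, adjusted p = 0.00206), Ogdh (0.30 ± 0.09) and Idh3b (0.30 ± 0.10). Of these, Idh3g, Ogdh and Fh1 fell in both subsets and fell further in MHC-IIhi, while Suclg1, Aco1 and Idh3b fell in MHC-IIhi and were not called in MHC-IIlo. Whether reads shared with Kmo entered the difference for Fh1 was not tested. The same test is one of whether the difference between the subsets was another in culture than in fresh cells, and these 6 had log2 fold changes of 0.05 to 0.30 between cultured MHC-IIlo and MHC-IIhi, against -0.56 to -0.13 between the fresh subsets.

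Of fatty acid oxidation, the change in MHC-IIlo lay above that in MHC-IIhi for Etfb (0.98 ± 0.21, adjusted p = 0.00277), Acaa2 (0.79 ± 0.12, adjusted p = 0.000145) and Hadh (0.58 ± 0.15, adjusted p = 0.0141). Acaa2 was at 44.2 ± 4.92 CPM in no-lactate MHC-IIlo and 47.3 ± 2.28 CPM in fresh MHC-IIlo, not called, and fell to 32.5 ± 4.24 CPM in no-lactate MHC-IIhi, against 60.1 ± 1.78 CPM in fresh MHC-IIhi. Below the line stood Pcx (-1.50 ± 0.42) and Acod1. The call of Idh3b was lost with 15 of 20 libraries left out singly (adjusted p up to 0.0766) and that of Ogdh with 4 (up to 0.0557).

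**Figure D3:**
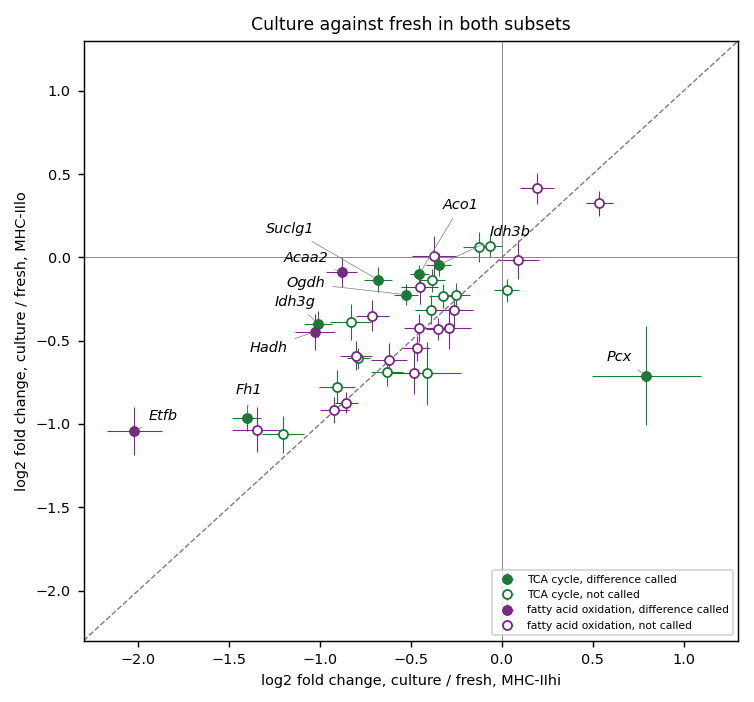
Log2 fold change of no-lactate culture against fresh in MHC-IIlo (vertical) and MHC-IIhi (horizontal) for the 20 TCA cycle (green) and 20 fatty acid oxidation genes (purple), with SE as bars and equal change as the dashed line. Filled points are the 10 named genes whose effects differed between the subsets, 9 of them above the line and Pcx below it, and Acod1 (4.76 and 6.84) lies outside the axes.

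Other genes of the pathways also changed in culture. Of 28 other TCA cycle and pyruvate genes tested, 5 rose and 15 fell in MHC-IIlo and 3 rose and 14 fell in MHC-IIhi. Pdp1, the phosphatase that switches pyruvate dehydrogenase on, rose to 118 ± 6.24 CPM in no-lactate MHC-IIlo, against 19.8 ± 1.33 CPM in fresh MHC-IIlo (2.58 ± 0.11, adjusted p = 2.36e-14), and by 1.89 in MHC-IIhi. Pdk1, a kinase that switches it off, fell to 36.5 ± 5.07 CPM in no-lactate MHC-IIlo, against 141 ± 8.69 CPM in fresh MHC-IIlo (-1.94 ± 0.13, adjusted p = 4.1e-11), and by 0.66 in MHC-IIhi, with a difference between the subsets of -1.28. Of the related genes, given here after their values were seen, the other phosphatase Pdp2 rose by 0.95 in MHC-IIlo and was not called in MHC-IIhi, the kinase Pdk3 fell by 0.69 in MHC-IIlo and was not called in MHC-IIhi (-0.04), Pdk2 fell by 1.00 in MHC-IIlo, and Pdk4 was not tested for want of counts. The malic enzyme Me1 rose by 1.31 in MHC-IIlo and 1.87 in MHC-IIhi, the transaminase Got1 fell by 1.24 in MHC-IIlo, and Slc25a13 and the kinase Pdk2 fell by 1.49 and 1.2 in MHC-IIhi.

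Of 35 other fatty acid oxidation genes, 6 rose and 16 fell in MHC-IIlo and 5 rose and 18 fell in MHC-IIhi. Acsl1, which activates long-chain fatty acids to acyl-CoA, rose to 164 ± 12.7 CPM in no-lactate MHC-IIlo, against 35.8 ± 5.96 CPM in fresh MHC-IIlo (2.20 ± 0.12, adjusted p = 1e-12), and to 225 ± 31.4 CPM in no-lactate MHC-IIhi, against 32.4 ± 3.67 CPM in fresh MHC-IIhi (2.80 ± 0.12, adjusted p = 2.79e-14). The lipid-sensing nuclear receptor Pparg rose by 2.94 in MHC-IIlo, with a difference between the subsets of 2.43, and its relative Ppard by 1.01 in MHC-IIhi. The peroxisomal transporter Abcd2 fell by 2.58 in MHC-IIlo and 2.05 in MHC-IIhi, and Cpt1c, a transferase known mainly from neurons, by 1.81 and 2.51 at levels under 2 CPM. Of 11 itaconate partners tested, 3 rose and 6 fell in MHC-IIlo and 2 rose and 6 fell in MHC-IIhi: Irf1, a factor that induces Acod1, rose by 2.32 and 2.84, while Clybl, the lyase that breaks down the itaconate product citramalyl-CoA, fell by 2.17 and 1.21 and Nfkbiz, a co-activator of inflammatory genes, fell by 2.61 in MHC-IIlo. The difference between the subsets in the culture effect was called for 6 of the 28 genes as higher and 2 as lower in MHC-IIlo, for 5 of the 35 as higher and 4 as lower and for 2 of the 11 as higher and 3 as lower, among them Slc25a13 (0.98), Pdp2 (0.95), Pdk3 (-0.65), Ppargc1b (1.39), Ppard (-0.69), Acsl4 (-0.61), Sdha (0.64), Nfkbiz (-2.03) and Clybl (-0.95).

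Monocyte markers moved with culture: 6 of 7 fell and 1 rose in MHC-IIlo, with sums of 137 to 227 CPM in no-lactate MHC-IIlo against 2450 to 3030 CPM in fresh MHC-IIlo, and 5 fell and 1 rose in MHC-IIhi, with sums of 309 to 778 CPM in no-lactate MHC-IIhi against 2330 to 3470 CPM in fresh MHC-IIhi. Of the 10 macrophage markers 3 rose and 6 fell in MHC-IIlo, with sums of 6480 to 9250 CPM after culture and 12500 to 16800 CPM in fresh cells, and 4 rose and 6 fell in MHC-IIhi, with sums of 4900 to 8370 CPM after culture and 8080 to 12000 CPM in fresh cells. Of 8 dendritic cell markers tested, 5 fell in MHC-IIlo, and 2 rose and 3 fell in MHC-IIhi. Of 7 neutrophil markers tested, 1 rose and 4 fell in MHC-IIlo, with sums of 790 to 1090 CPM after culture and 1020 to 2020 CPM in fresh cells, and 2 rose and 4 fell in MHC-IIhi, with sums of 763 to 1110 CPM after culture and 276 to 717 CPM in fresh cells. Mmp8 had the highest mean of them after culture, at 836 CPM in no-lactate MHC-IIlo and 766.5 CPM in no-lactate MHC-IIhi. Of 3 epithelial and tumour markers, 2 fell in each subset and 1 rose in MHC-IIhi, with sums of 43.5 to 59.9 CPM in no-lactate MHC-IIlo against 138 to 281 CPM in fresh MHC-IIlo, and 38.6 to 84.2 CPM in no-lactate MHC-IIhi against 506 to 580 CPM in fresh MHC-IIhi. Cdh1 had means of 1.46 CPM in no-lactate MHC-IIlo and 113 CPM in fresh MHC-IIlo. In MHC-IIhi its means were 7.65 CPM after culture and 438 CPM in fresh cells. Of 6 fibroblast markers, 4 fell and 1 rose in MHC-IIlo and 1 rose in MHC-IIhi, and of T and NK cell markers 2 of 6 fell in each subset, as did the 1 B cell marker tested. Their part in the changes of the member genes was not tested, and the culture and the larger number of cells lysed cannot be told apart.

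In culture with no lactate, the subsets differed in 10 of the 41 members, where 20.8% of 13593 genes tested were called, 9.20% higher and 11.6% lower. Only 2 of the 20 TCA cycle genes were called, both higher in MHC-IIlo, with a median of 0.07. Idh2 was at the 45.6 to 57.8 CPM given above in MHC-IIlo, against 28.8 to 43.7 CPM in MHC-IIhi, without overlap (0.63 ± 0.14, adjusted p = 0.00283). Suclg1 was at 50.8, 48.5, 42.0, 46.5 and 46.0 CPM in MHC-IIlo and at 45.0, 38.8, 34.9, 38.5 and 34.04 CPM in MHC-IIhi, where the groups overlapped and the call was narrow (0.30 ± 0.10, adjusted p = 0.0483), being lost with 15 of 20 libraries left out singly (up to 0.135).

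Of the 20 fatty acid oxidation genes, 5 were higher and 2 lower in no-lactate MHC-IIlo, with a median of 0.09. Acadm stayed lower, at 32.5 to 37.0 CPM in MHC-IIlo against 44.7 to 48.8 CPM in MHC-IIhi (-0.45 ± 0.09, adjusted p = 0.000901), with no overlap. Slc25a20 was at 32.2, 34.6, 28.3, 25.8 and 28.4 CPM in MHC-IIlo and at 53.4, 44.4, 33.0, 40.2 and 39.3 CPM in MHC-IIhi, with 1 MHC-IIhi library inside the MHC-IIlo range (-0.49 ± 0.13, adjusted p = 0.00762).

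Hadh, the 3-hydroxyacyl-CoA dehydrogenase of short chains, was at 28.7, 26.8, 29.6, 29.3 and 25.1 CPM in MHC-IIlo and at 16.3, 14.98, 25.7, 19.03 and 17.8 CPM in MHC-IIhi. The groups met only at library 5 of MHC-IIhi (0.58 ± 0.18, adjusted p = 0.0242), and the call was lost without MHC-IIhi 3 or 4 (up to 0.0654). Etfb (0.75 ± 0.24), Decr1 (0.63 ± 0.21), Acaa2 (0.45 ± 0.15) and the enoyl-CoA isomerase Eci1 (0.38 ± 0.12) were the others higher in MHC-IIlo, and each lost its call with 6 or 7 of 20 libraries left out singly. The count of 10 was 4 without no-lactate MHC-IIhi 4, 6 without MHC-IIhi 6, 5 without no-lactate MHC-IIlo 1 and 6 without MHC-IIlo 3.

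Acod1 was 2.22-fold lower in no-lactate MHC-IIlo, at 437 ± 45.9 CPM against 976 ± 197 CPM in MHC-IIhi, with no overlap (-1.15 ± 0.16, adjusted p = 1.84e-05).

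With lactate in the medium, the subsets differed in 12 of the 41 members, where 22.4% of 13593 genes were called, 9.13% higher and 13.3% lower. Of the TCA cycle 3 were higher in MHC-IIlo and none lower, with a median of 0.16. Idh2 was at 56.6, 57.6, 43.9, 56.4 and 58.2 CPM in lactate MHC-IIlo and at 30.4, 38.6, 21.9, 37.9 and 29.4 CPM in lactate MHC-IIhi, with no overlap (0.78 ± 0.14, adjusted p = 0.000413). Idh2 was thus higher in MHC-IIlo in fresh, no-lactate and lactate cells, the one TCA cycle gene called in the same direction in all 3.

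Mdh1 was at 94.9, 104, 107, 107 and 98.8 CPM in lactate MHC-IIlo and at 92.0, 99.5, 76.4, 84.6 and 68.3 CPM in lactate MHC-IIhi, with overlap (0.28 ± 0.09, adjusted p = 0.0251). Pdhb was at 41.9, 44.9, 58.3, 56.1 and 48.9 CPM in lactate MHC-IIlo and at 38.3, 35.6, 47.4, 36.1 and 41.2 CPM in lactate MHC-IIhi, also with overlap (0.33 ± 0.11, adjusted p = 0.0411). Their calls were lost with 4 and 7 of 20 libraries left out singly.

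Of fatty acid oxidation 6 were higher and 2 lower in lactate MHC-IIlo, with a median of 0.13. Decr1 was at 10.6, 6.46, 7.21, 4.80 and 7.27 CPM in lactate MHC-IIlo and at 5.71, 3.67, 2.35, 4.46 and 3.24 CPM in lactate MHC-IIhi, overlapping at library 5 of MHC-IIlo (0.89 ± 0.21, adjusted p = 0.00409). Acadm was at 40.1, 32.3, 28.5, 31.5 and 33.8 CPM in lactate MHC-IIlo and at 47.0, 40.2, 40.8, 38.8 and 48.2 CPM in lactate MHC-IIhi, with a narrow overlap (-0.37 ± 0.09, adjusted p = 0.00443), and was the one member lower in MHC-IIlo in fresh, no-lactate and lactate cells. Hadh was at 27.3, 23.4, 17.8, 30.8 and 24.6 CPM in lactate MHC-IIlo and at 16.4, 19.6, 10.7, 20.3 and 12.2 CPM in lactate MHC-IIhi, again overlapping (0.64 ± 0.18, adjusted p = 0.0133).

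Also higher in lactate MHC-IIlo were Etfb (0.81 ± 0.24), Acadvl (0.41 ± 0.12), Eci1 (0.40 ± 0.12) and Etfdh (0.29 ± 0.08), and Acaa1a was lower (-0.64 ± 0.20). The calls of Etfb, Eci1 and Acaa1a were each lost without 1 library (MHC-IIlo 3, MHC-IIhi 4 and MHC-IIhi 1, all of the lactate groups) and that of Acadvl without lactate MHC-IIhi 6 or MHC-IIlo 3, at an adjusted p of 0.053 to 0.0848. Without library 5 of lactate MHC-IIlo, 13 members were called. Acod1 was at 427, 470, 492, 356 and 406 CPM in lactate MHC-IIlo and at 1687, 1101, 1120, 1065 and 931 CPM in lactate MHC-IIhi, 2.75-fold lower with no overlap (-1.46 ± 0.16, adjusted p = 1.33e-06).

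Among other genes of the pathways, Pdp1 was higher and Pdk1 lower in MHC-IIlo in both cultures (1.2 and -1.21 with no lactate, 0.74 and -1.10 with lactate), and the succinate dehydrogenase subunit Sdha was higher (0.55 with no lactate, 0.39 with lactate). The kinase Pdk3 was lower with no lactate (-1.07), and with lactate Slc25a12 was lower (-0.76) and the phosphatase Pdp2 higher (0.46). Of 28 other TCA cycle and pyruvate genes, 5 were higher and 7 lower in MHC-IIlo with no lactate and 4 higher and 5 lower with lactate. Of 34 other fatty acid oxidation genes, 4 were higher and 3 lower with no lactate, with Pparg (1.50) and Ppargc1b (1.05) highest and Ppard (-0.64) and Acsl4 (-0.61) lowest, and 3 higher and 4 lower with lactate, with the leucine-pathway dehydrogenase Ivd (0.47) and the thioesterase Acot13 (0.41) highest and Abcd2 (-1.23) and Acsl4 (-0.68) lowest. Of 11 itaconate partners, 2 were higher and 3 lower with no lactate and 1 higher and 4 lower with lactate, the lowest being Nfkbiz (-1.79 with no lactate, -1.36 with lactate), and Clybl (-1.14 and -1.08).

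Dendritic cell markers had 6 of 7 tested lower in MHC-IIlo in both cultures, with sums of 8.80 to 20.2 CPM in no-lactate MHC-IIlo and 104 to 285 CPM in no-lactate MHC-IIhi, and 8.47 to 22.6 CPM in lactate MHC-IIlo and 102 to 289 CPM in lactate MHC-IIhi. Monocyte markers had 5 of 7 lower and 1 higher in both, with sums of 137 to 227 CPM in no-lactate MHC-IIlo and 309 to 778 CPM in no-lactate MHC-IIhi, and 151 to 281 CPM in lactate MHC-IIlo and 515 to 850 CPM in lactate MHC-IIhi. Macrophage markers had 3 of 10 higher in MHC-IIlo with no lactate, and 3 higher and 2 lower with lactate. Epithelial and tumour markers had 2 of 3 tested lower in both cultures, Epcam and Cdh1, and fibroblast markers 1 of 6, Pdgfrb. T and NK cell markers had 1 of 2 tested lower with no lactate and 2 of 2 with lactate. Neutrophil markers had 1 of 4 tested higher with no lactate, S100a8, and none called with lactate. No B cell marker was tested. Their part in the subset differences was not tested.

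**Figure D4:**
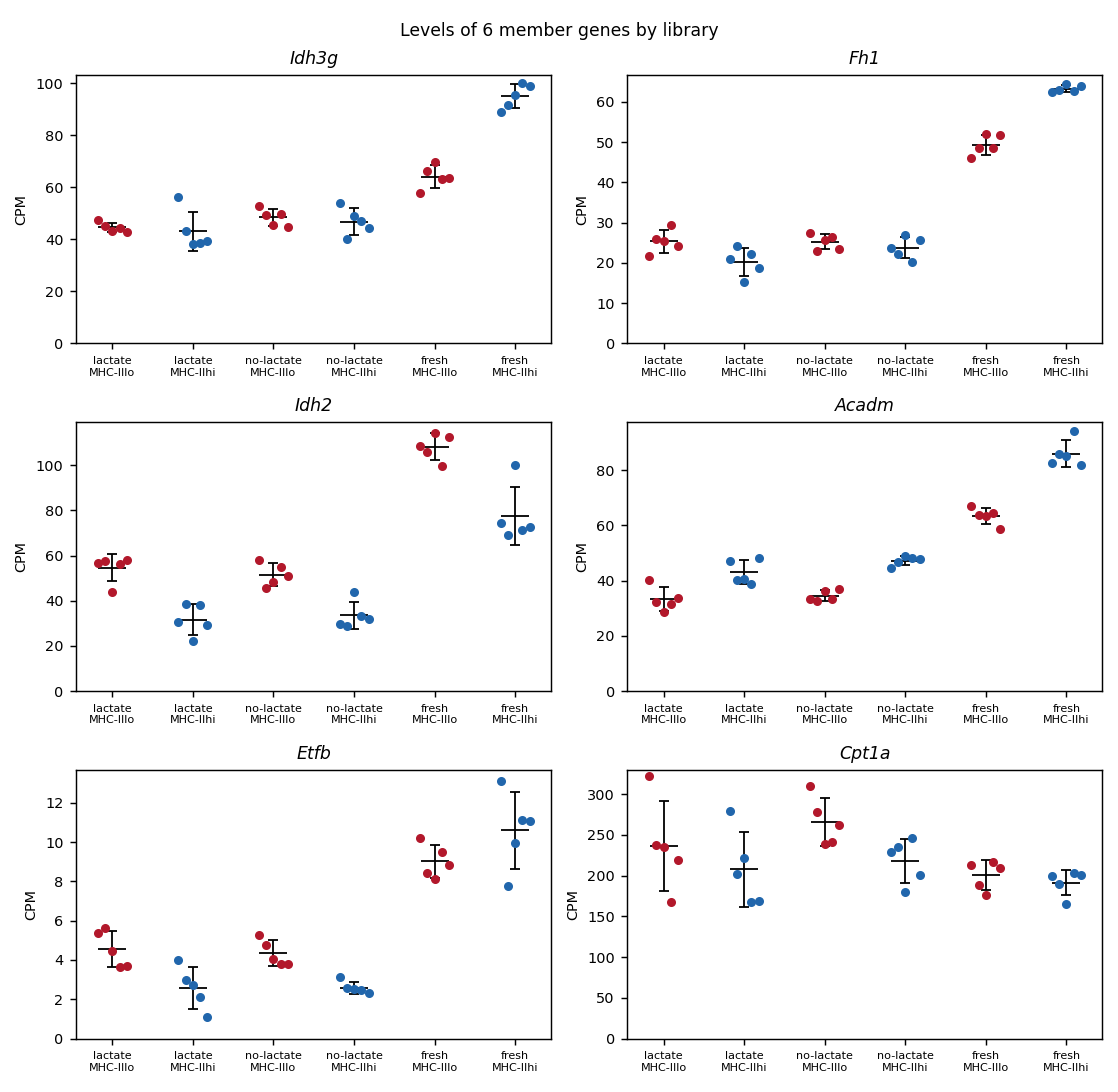
Levels of 6 members in each library (points, red for MHC-IIlo and blue for MHC-IIhi), in CPM from 0, with the mean and SD of 5 libraries per group (black). Idh3g and Fh1 separate the fresh subsets and not the cultured ones, mean Idh2 is higher and mean Acadm lower in MHC-IIlo in all 3 conditions, Etfb is lowest in cultured MHC-IIhi, and Cpt1a does not fall in culture.

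None of the 41 members was called for lactate in either subset by the edgeR test without a replicate block. In MHC-IIlo, lactate against no lactate, 1.49% of 13593 genes tested were called by edgeR, 0.905% higher and 0.581% lower. That share depended on the fit, being 202 genes here, 531 in a fit of all 30 libraries, 702 with DESeq2 and 1111 with a replicate block. The block also called the members Mdh2 and Acadvl, but its numbers were not taken to pair these libraries. Of the 41 members 5 had an unadjusted p under 0.05, 2 in the TCA cycle and 3 in fatty acid oxidation, as had 2373 of the 13593 genes. DESeq2 called 1 member, Mdh2, and limma on the deposited FPKM called none. In MHC-IIhi 0.250% of genes were called, 0.206% higher and 0.0441% lower. These were 34 genes, against 53 in the fit of all 30 libraries, 81 with the replicate block and 128 with DESeq2. Of the 41 members 1 had an unadjusted p under 0.05 in MHC-IIhi, as had 1342 of the 13593 genes. Neither DESeq2 nor limma called any member.

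The intervals show how much change the data leave room for. In MHC-IIlo the log2 fold changes of TCA cycle genes ran from -0.19 to 0.67 and their 95% intervals from -0.61 to 1.28, with 19 of 20 intervals inside a change of 1 on the log2 scale either way, the exception being Pcx. Those of fatty acid oxidation ran from -0.23 to 0.31, with intervals from -0.54 to 0.57. In MHC-IIhi the TCA cycle genes ran from -0.26 to 0.41, with intervals from -0.73 to 0.87, and fatty acid oxidation from -0.38 to 0.20, with intervals from -0.82 to 0.60.

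The lowest adjusted p of a member was that of Mdh2 in MHC-IIlo. It was at 201, 221, 238, 227 and 206 CPM in lactate MHC-IIlo and at 186, 193, 188, 193 and 167 CPM in no-lactate MHC-IIlo. The groups did not overlap, and the log2 fold change was 0.24 ± 0.08, with an interval of 0.07 to 0.41 (adjusted p = 0.122). In MHC-IIhi Mdh2 had a log2 fold change of -0.04 that was not called.

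Acod1 was at 430 ± 53.6 CPM in lactate MHC-IIlo and 437 ± 45.9 CPM in no-lactate MHC-IIlo (-0.02 ± 0.16, interval -0.35 to 0.30, adjusted p = 0.956). It was at 1181 ± 292 CPM in lactate MHC-IIhi and 976 ± 197 CPM in no-lactate MHC-IIhi (0.29 ± 0.16, interval -0.04 to 0.61, adjusted p = 0.574). Both pairs of groups overlapped, and without the highest library, number 1 of lactate MHC-IIhi, the second change was 0.11.

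Whether lactate acted otherwise in the 2 subsets was tested as the difference of its effects. None of the 41 members was called, nor was any of the 13593 genes (0.00%), of which 1018 had an unadjusted p under 0.05, as had 2 members. DESeq2 called 3 genes and limma none, no member among them. Differences of the members ran from -0.60 to 0.40 with intervals from -1.20 to 1.24. Of the other pathway genes, lactate raised the mitochondrial transaminase Got2 (0.36 ± 0.09, adjusted p = 0.0418) and the ethylmalonyl-CoA decarboxylase Echdc1 (0.67 ± 0.16, adjusted p = 0.0444), and lowered Abcd3 (-0.49 ± 0.10, adjusted p = 0.0239) in MHC-IIlo, with 1 of 28 and 2 of 34 called, and none was called in MHC-IIhi. None of the 11 itaconate partners was called in either subset. Neutrophil markers summed to 1630 to 2350 CPM in lactate MHC-IIhi against 763 to 1110 CPM in no-lactate MHC-IIhi, with 1 of 4 tested called higher, and to 469 to 1700 CPM in lactate MHC-IIlo against 790 to 1090 CPM in no-lactate MHC-IIlo, with none of 4 called. Mmp8 had the highest mean of them in all 4 groups, at 1782 CPM in lactate MHC-IIhi and 766.5 CPM in no-lactate MHC-IIhi.

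**Figure D5:**
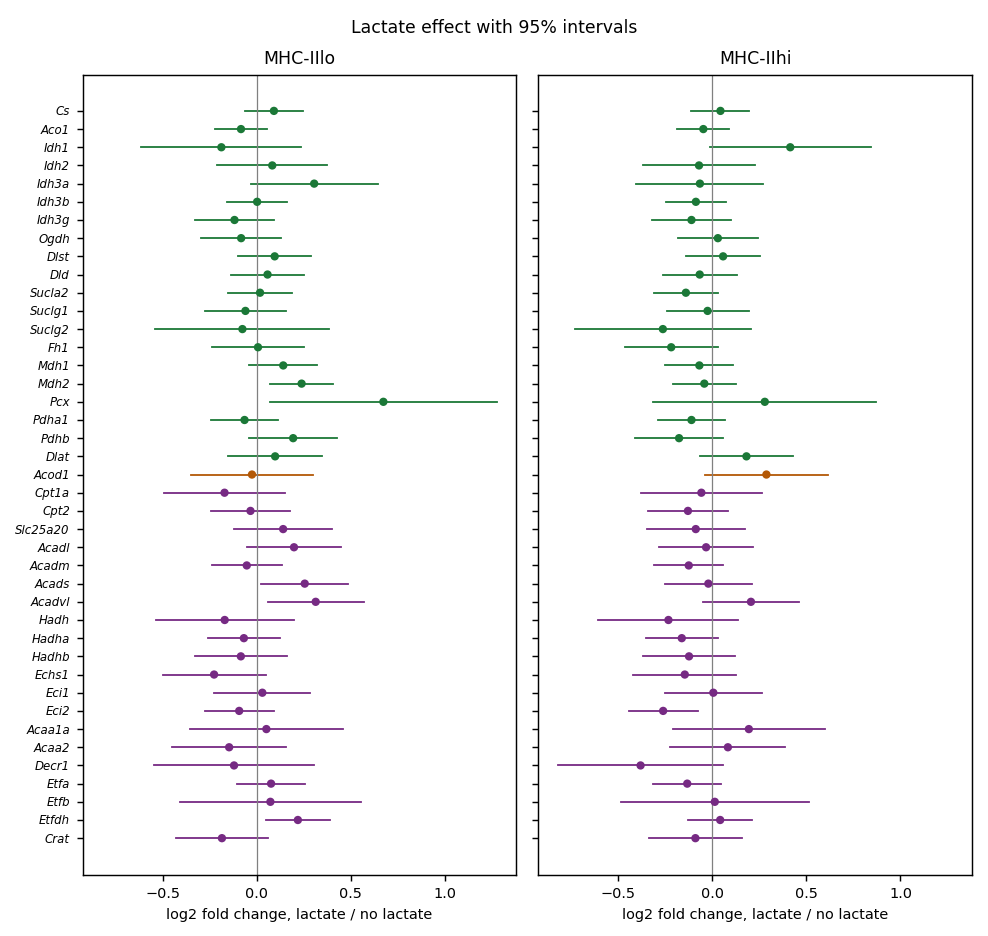
Log2 fold change of lactate against no lactate (points) with its 95% interval (lines) for the 41 members in MHC-IIlo (left) and MHC-IIhi (right), TCA cycle in green, Acod1 in orange and fatty acid oxidation in purple. Most intervals span 0, and the widest is that of Pcx in MHC-IIlo, up to 1.28.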

How the data were processed

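The data are 30 bulk RNA-seq libraries in 6 groups of 5. Trimmomatic, STAR and featureCounts on GRCm38 made the counts, per the submitters' processing notes, with versions and the strand setting not given in the sources used here. The authors deposited whole read counts per gene (46603 genes) and an FPKM table of 13778 genes. In the deposited FPKM table, values times gene length had one and the same distribution in all 30 columns (relative spread up to 1.1e-13), as quantile normalisation gives, so FPKM served as an alternative only. Raw reads were not analysed here. Fresh columns matched sample titles; cultured columns carried other numbers than the titles, so they were placed in their group only and are called by the number in the header.

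Counts were tested with edgeR 4.0.16 (R 4.3.3): filterByExpr with a minimum count of 10, TMM factors, group means without a block, the quasi-likelihood F test and Benjamini-Hochberg adjustment over all genes tested, with a threshold of 0.05. The fresh fit held 10 libraries, the cultured fit 20 and the culture against fresh fit the 20 libraries without lactate. SE is the log2 fold change over the square root of F. CPM used TMM factors over all 30 libraries, and RPKM divides CPM by the kilobases of gene length in the file. The steps were checked on simulated data.

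Alternatives were DESeq2 1.42.0, DESeq2's size factors within edgeR, no filter, 1 fit of all 30 libraries, limma 3.58.1 on log2(FPKM + 1), with and without a filter of 1 FPKM in 5 libraries, and on log2(FPKM + 0.1), a replicate block, and each library left out. Same-numbered fresh libraries of the 2 subsets correlated at 0.114 to 0.571 in 5 pairs, with the same number best for 4 of 5. Library 1 of fresh MHC-IIlo was closest to library 4 of fresh MHC-IIhi. The numbers were taken to pair the fresh libraries, though the main fresh test had no block. Genes named from the other pathway lists were the 2 highest and 2 lowest called per comparison. The members, lists and motifs were chosen with earlier results of these data known. Of the 41 members 17 overlap another gene, 7 of them one with at least 10% of their counts: Pcx, Acaa1a, Idh3b, Acadvl, Crat, Etfdh and Fh1.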

Additional observations from a re-analysis of the deposited data

Results flagged for a closer look

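In 14 of 246 groups of 5 libraries 1 library stood far from the others, where chance gives about 1 in 20 such groups. In lactate MHC-IIlo, Idh2 was at 43.9 CPM in library 4 against 56.4 to 58.2 CPM in the others, Pdha1 at 89.0 CPM in library 1 against 82.4 to 83.6 CPM, and Acaa1a at 38.0 CPM in library 5 against 71.3 to 76.8 CPM. In lactate MHC-IIhi, library 1 had the highest Acod1 (1690 CPM against 931 to 1120 CPM), Idh3g (56.2 CPM against 38.4 to 43.2 CPM) and Slc25a20 (50.3 CPM against 33.4 to 38.1 CPM). In no-lactate MHC-IIlo, Mdh2 was at 167 CPM in library 6 against 186 to 193 CPM. In no-lactate MHC-IIhi, library 5 had Suclg2 at 16.7 CPM against 8.52 to 9.79 CPM and Hadhb at 10.8 CPM against 13.3 to 14 CPM. In fresh MHC-IIlo, library 5 had Acod1 at 24.8 CPM against 12.7 to 15.2 CPM and Eci1 at 13.2 CPM against 16.5 to 17.7 CPM, and library 1 had Acaa2 at 51.2 CPM against 45.8 to 47.3 CPM. In fresh MHC-IIhi, Idh2 was at 100 CPM in library 3 against 69.0 to 74.3 CPM, and Eci1 at 19.8 CPM in library 2 against 15.2 to 16.3 CPM.

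The effect of culture differed between the subsets by the edgeR test of the difference itself for 11 members. The change in MHC-IIlo minus that in MHC-IIhi was 0.61 for Idh3g, 0.55 for Suclg1, 0.44 for Fh1, 0.35 for Aco1, 0.30 for Idh3b, 0.30 for Ogdh, 0.98 for Etfb, 0.79 for Acaa2 and 0.58 for Hadh on the log2 scale. It was -1.50 for Pcx and -2.09 for Acod1.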

How the results depend on the processing

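Of 115 calls of members over the comparisons, 85 were kept in every alternative run, and none of the 115 changed sign. The count of members called between the lactate subsets, 12 as reported, was 20 with each of the 3 limma fits on FPKM, and that between the no-lactate subsets, 10 as reported, was 16 with limma on log2(FPKM + 1) with no filter. Lactate against no lactate in MHC-IIlo gave 1 call with DESeq2 and 2 with a replicate block, against none as reported. Over all genes, those called for lactate in MHC-IIhi, 34 as reported, were 59 with limma on log2(FPKM + 1) with no filter, and those called for the difference of lactate effects, 0 as reported, were 1 in the fit of all 30 libraries, 3 with DESeq2 and 2 with a replicate block. Mdh1 in MHC-IIhi, no-lactate culture against fresh, was at 0.03 as reported and at -0.18 (-0.1755, -0.1797 and -0.1755) with the 3 limma fits. The edgeR value was not called, and the cause was not tested.

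Besides the calls named above as lost with left-out libraries, some were lost in other fits. On FPKM with limma these were, between the fresh subsets, Mdh2, Aco1, Idh3b and Acads (adjusted p 0.0582 to 0.332), and for culture Mdh2, Ogdh and Pcx in MHC-IIlo and Cpt2 in MHC-IIhi (0.105 to 0.294). In a fit of all 30 libraries they were Acaa1a (0.13), Acads (0.151) and Pdhb (0.0911) between the fresh subsets, Idh1 for culture in MHC-IIlo (0.062), Acaa1a in MHC-IIhi (0.142), and Hadh (0.0745), Ogdh (0.13) and Idh3b (0.0519) for the difference of culture effects. With no filter on low counts 15 calls were lost (0.0504 to 0.124), with RLE size factors 3 (0.0559 to 0.0611) and with DESeq2 2, Acads (0.0517) and Acaa1a (0.0596).

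With each library left out in turn, the count was 12 to 16 between the fresh subsets, 4 to 13 between the no-lactate subsets, 9 to 13 between the lactate subsets, 28 to 31 for culture in MHC-IIlo, 33 to 35 in MHC-IIhi and 9 to 12 for the difference of culture effects, and 0 for lactate throughout. Acod1 ranged from 0.74 to 1.01 between the fresh subsets, -1.25 to -1.07 with no lactate, -1.53 to -1.30 with lactate, 4.68 to 4.96 for culture in MHC-IIlo and 6.71 to 6.94 in MHC-IIhi.

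With the replicate block, 21 members were called between the fresh subsets, 12 between the no-lactate subsets and 16 between the lactate subsets, with Acod1 at 0.93 between the fresh, -1.29 between the no-lactate and -1.45 between the lactate subsets. Over all genes the block called 5004 between the fresh, 3210 between the no-lactate and 4105 between the lactate subsets. Without it these were 3737, 2830 and 3045. For lactate against no lactate in MHC-IIlo the block called Mdh2 (0.24, adjusted p = 0.0313) and Acadvl (0.32, adjusted p = 0.0408), and 1111 genes in all against 202 without it; in MHC-IIhi it called 81 genes against 34. In no pair of cultured groups did every same-numbered pair of libraries correlate by over 0.1: the range was 0.0519 to 0.453 for lactate and no-lactate MHC-IIlo (same number best for 3 of 5), -0.45 to 0.574 for lactate and no-lactate MHC-IIhi (2 of 4), -0.106 to 0.584 for the lactate subsets (2 of 5) and -0.0492 to 0.407 for the no-lactate subsets (3 of 4). These libraries are therefore treated as sharing only a number. No paired analysis was possible for culture against fresh because the cultured columns carry other numbers. Calls of members under about 10 CPM, such as Pcx, Etfb and Decr1, rest on the fewest counts.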
